A study of Mus musculus with 29 samples.

Results

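This account describes RNA of 3T9 fibroblasts labelled in a 10 min pulse, after 4 h of Myc activation and at 0 h, and called nascent RNA after the labels. 3T9 cells are a spontaneously immortalised line of mouse embryonic fibroblasts. These came from embryos of day 13.5 and mixed strain background, were c-myc flox/flox and were infected in vitro with MycER. MycER is a Myc protein fused to the hormone-binding part of the oestrogen receptor, and 4-hydroxytamoxifen (OHT) switches it on. The nascent library at 4 h (4sU_4h) came from cells given 400 nM OHT, and the library at 0 h (4sU_0h) from cells given ethanol. Both pools of cells were labelled with 300 µM 4-thiouridine (4sU) and grown in medium with 10% serum. All groups share the floxed alleles and the transgene, and a group of cells without MycER given OHT was not analysed here, so the agent and MycER activity cannot be told apart. Labelled RNA was tied to biotin, pulled down and sequenced after removal of ribosomal RNA. Total RNA of the same cell system was sequenced at 4 h (OHT_4h) and 0 h (OHT_0h), and also at 8 h and 16 h, with 4 libraries per time. Genes entered if they had at least 1 FPKM (fragments per kilobase of transcript, scaled to library size) in either nascent library, which held for 12375 of 21675 genes. Each gene has a log2 ratio of FPKM + 0.5, 4 h over 0 h, on which a doubling is 1 and which understates changes of low genes.

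Myc binds DNA as a pair with Max, mostly at E-box sequences near promoters. It is known for raising genes of ribosome production, protein synthesis and nucleotide synthesis, and for lowering others when it works with partners such as Miz1. A short 4sU pulse samples RNA while it is being made, whereas total RNA also holds what accumulated earlier. In bulk RNA, fewer cells making an RNA and less of it per cell cannot be told apart.

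With 1 nascent library per time there was no replicate and no test of the nascent ratio. The spacing of the lowest FPKM values in each file gave the number of reads the values were divided by, which was 24.4 M for 4sU_4h and 27.86 M for 4sU_0h. The highest value was 87.8 FPKM in 4sU_4h and 85.2 FPKM in 4sU_0h, and over all 18 fibroblast libraries the highest value was between 2.14 and 3.42 reads per base. Of 10 fibroblast markers, 9 had at least 1 FPKM, with a summed level of 362 FPKM in 4sU_4h and 366 FPKM in 4sU_0h. The level in 4sU_0h over the mean total RNA level in OHT_0h had a median log2 of -1.02 over 27 immediate early genes, whose RNAs are short-lived, -0.92 over 38 ribosomal protein genes, whose RNAs are stable, and -1.13 over all 12375 genes, so this check did not show short-lived RNAs to stand out in the labelled library. The 8 macrophage markers summed to 13.9 and 15.9 FPKM in 4sU_4h and 4sU_0h, 8 lymphocyte markers to 4.51 and 4.60 FPKM and 8 endothelial markers to 2.34 and 2.91 FPKM. The 8 epithelial markers summed to 1.75 and 1.49 FPKM and the 8 muscle markers to 3.94 and 3.14 FPKM, in the same order. None of these markers was at 0 in both libraries.

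The 3 promoters printed here were chosen because they belong to the largest rise and to both named rises that hold 2 kinds of E-box. They run from 250 bases before to 50 after the gene start, 5′ to 3′ on the gene's strand, and were taken from RefSeq on GRCm38.p6. Capitals mark CACGTG, the E-box that reads the same on both strands, and CACGCG, a variant that Myc and Max also bind, which reads CGCGTG on the other strand. The promoter of Rgcc lies at chr14:79301586-79301885 on the minus strand, that of Fzd9 at chr5:135250998-135251297 on the minus strand and that of Dusp2 at chr2:127335909-127336208 on the plus strand.
Rgcc: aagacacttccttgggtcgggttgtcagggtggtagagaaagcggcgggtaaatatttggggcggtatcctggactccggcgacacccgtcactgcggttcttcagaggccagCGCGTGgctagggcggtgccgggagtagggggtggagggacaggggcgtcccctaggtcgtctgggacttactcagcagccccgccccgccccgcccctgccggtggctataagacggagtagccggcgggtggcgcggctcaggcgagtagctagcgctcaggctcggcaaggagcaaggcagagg
Fzd9: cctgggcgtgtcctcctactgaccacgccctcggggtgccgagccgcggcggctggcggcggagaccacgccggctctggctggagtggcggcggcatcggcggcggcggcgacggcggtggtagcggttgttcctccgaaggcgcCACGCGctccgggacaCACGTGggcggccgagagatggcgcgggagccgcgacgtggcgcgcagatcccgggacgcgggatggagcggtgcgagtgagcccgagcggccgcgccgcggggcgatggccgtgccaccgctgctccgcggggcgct
Dusp2: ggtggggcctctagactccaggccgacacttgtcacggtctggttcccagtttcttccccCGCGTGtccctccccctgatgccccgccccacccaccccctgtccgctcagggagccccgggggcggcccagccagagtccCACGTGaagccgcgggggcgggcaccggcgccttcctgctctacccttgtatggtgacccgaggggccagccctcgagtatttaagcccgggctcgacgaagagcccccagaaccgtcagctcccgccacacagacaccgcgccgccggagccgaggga

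In Rgcc the variant began 137 bases before the start. In Fzd9 CACGTG began 88 bases and the variant 104 bases before it, and in Dusp2 CACGTG began 109 bases and the variant 190 bases before it. Of the 12 largest rises described next, 10 had a promoter in the table. CACGTG was in 3 of these and the variant in 6, beside 11.8% and 20.2% of all members with a promoter. Of the 12 largest falls, 8 had a promoter, with CACGTG in 1, Pim1, and the variant in 1, Ccng2. A named gene with more than 1 listed promoter, such as Pim1, was counted if any of them held the motif. The variant was in 28.3% of the 92 promoters of genes at least 2-fold higher at 4 h and in 8.82% of the 34 of genes at least 2-fold lower. Among genes past 1.5-fold it was in 28.5% of the 425 that were higher and 14.5% of the 275 that were lower. Among the 9483 genes of this comparison with a promoter it was in 20.2%, and among all 27025 genes of the table in 10.5%. CACGTG itself was in 16.3% of promoters of genes 2-fold higher, 17.6% of those 2-fold lower and 11.8% of all members, so its share was about as high on either side. CATGTG, a further E-box form also searched on both strands, was in 14.1%, 11.8% and 10.2%, in that order. The median GC content, taken from each gene's promoter of highest GC, was 63.8% for genes 2-fold higher, 60.5% for genes 2-fold lower and 62.0% for all members. Its part in the share of the CG-rich variant was not tested, and a match is a stretch of letters, not a site of binding.

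Relative to their library, most nascent RNA levels were alike at 4 h and 0 h. Values scaled to library size cannot show a change shared by most genes. The log2 ratio had a median of 0.02, with the middle 50% of the genes between -0.16 and 0.19. At least 2-fold higher at 4 h were 147 genes, 1.19% of those measured, and at least 2-fold lower were 87, or 0.703%. With median ratio scaling the counts were 128 higher and 98 lower, and with quantile normalization 144 and 88. On raw reads per base, with no division by library size, the median of all genes moved by -0.18 and the counts were 95 higher and 157 lower. Of these scales, only the one without this division reversed the balance of both sides. The share past 2-fold on either side was 1.89%. Between 2 total RNA libraries of 1 group it was 0.638% to 5.24% over 12 such pairs. Pairs without a library numbered 4 gave 0.638% to 1.38%, below the nascent share, and pairs with one gave 2.63% to 5.24%, above it. As the nascent ratio has no replicate, values of the replicated total RNA libraries are given beside most nascent results. The cutoffs fall in a dense region. There were 45 genes with a log2 ratio from 0.9 to just under 1 and 35 from 1 to 1.1, and 155 genes with their higher value between 1 and 1.1 FPKM against 170 just under the entry level.

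**Figure D1:**
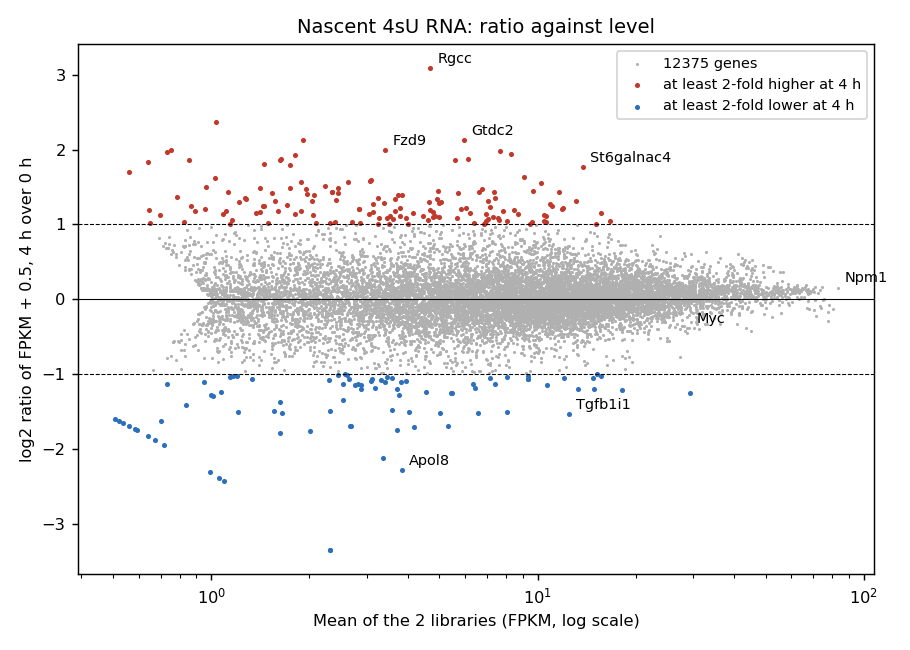
Log2 ratio of nascent RNA (FPKM + 0.5, 4 h over 0 h) against the mean FPKM of both libraries on a log axis, 1 point per gene for 12375 genes, with dashed lines at 2-fold. The cloud narrows to the right, where 1 of 1830 genes above 20 FPKM is past 2-fold, and Rgcc stands highest at 3.09.

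Ratios were wide among low genes and narrow among high ones. Their SD across genes was 0.44 among 1280 genes with a mean level above 1 and up to 2 FPKM, and 0.15 among 320 genes above 40 FPKM. Among 219 genes with a mean level up to 1 FPKM it was 0.72. Those genes entered only with 1 library at 1 FPKM or more and the other at 1 FPKM or less, so the entry rule itself widens their ratios. Above 20 FPKM, 0 of 1830 genes were 2-fold higher and 1 was 2-fold lower, with a median log2 ratio of 0.08. At or below 20 FPKM, 147 of 10545 were 2-fold higher and 86 were 2-fold lower, with a median of 0.01. The highest values of the libraries, given above as reads per base, lay close together, and the sources used here do not say whether high values were limited before deposit, so a small change of a highly expressed gene and such a limit cannot be told apart. Npm1, a nucleolar histone chaperone, was among the genes with the highest nascent levels, with 87.8 FPKM in 4sU_4h and 78.7 FPKM in 4sU_0h. Eef1a1, which brings tRNAs to the ribosome, had 78.5 and 70.2 FPKM, and Rpl12, a ribosomal protein, 76.9 and 70.3 FPKM, at 4 h and 0 h. Gas5, a noncoding host of snoRNAs, had 74.4 FPKM in 4sU_4h and 75.1 FPKM in 4sU_0h. Apart from Gas5, these were slightly higher at 4 h, by a log2 ratio of 0.13 to 0.16, but lower on raw reads per base, at -0.06 to -0.03.

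Short genes stood a little above long ones. When protein-coding genes were split into 5 equal groups by genomic span, from shortest to longest, the median log2 ratio was 0.08, 0.05, 0.03, 0.00 and -0.04. At least 1.5-fold higher were 6.84% of the shortest group and 3.05% of the longest, beside 4.83% of all genes, and 1.5-fold lower were 3.53% and 3.22%, beside 3.52% of all. By kind of gene, 114 of 11478 protein-coding genes were 2-fold higher and 42 were 2-fold lower. Genes of miRNAs, whose listed length is only that of the hairpin, gave 22 higher and 42 lower of 289. They made up 42 of the 87 genes past 2-fold on the lower side. The 64 miRNA genes past 2-fold had about 6.55 reads in the higher library at the median, so their ratios rest on very few reads. Of the genes past 2-fold, 5 on the higher side were listed at 0 FPKM in 4sU_0h and 14 on the lower side at 0 FPKM in 4sU_4h, and all 19 were miRNA genes. Long noncoding genes gave 5 higher and 1 lower of 276.

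Rises and falls of nascent RNA are named by size alone. The 12 largest rises, among genes whose higher library had 5 FPKM or more, are described by the roles of single genes. All 12 also rose in total RNA at 4 h in limma's test (adjusted p under 0.05), beside 1.9% of all genes tested and 1.83% of those measured in nascent RNA. In all 12, every OHT_4h library was above every OHT_0h library, which held for 4.37% of all genes tested. The ranking itself used nascent RNA alone, by a rule written with earlier results of these data known.

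Rgcc, a regulator of the cell cycle, had 8.79 FPKM in 4sU_4h and 0.589 FPKM in 4sU_0h, a log2 ratio of 3.09, and was the largest rise. These values stand for about 197 and 15 reads, and on the read ratio without a pseudocount the log2 change was 3.90, with a 95% interval of 3.15 to 4.77 that covers counting error only. In total RNA it had 40.8, 40.2, 41.5 and 42.9 FPKM in OHT_4h libraries and 4.56, 4.37, 4.21 and 4.99 FPKM in OHT_0h libraries. The groups lie far apart, with a limma log2 fold change of 3.06 (SE 0.14, adjusted p = 1.84e-11).

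Among receptors and signalling genes, Fzd9, a receptor for Wnt ligands, had 5.77 FPKM in 4sU_4h and 1.07 FPKM in 4sU_0h, a log2 ratio of 2.00. Its total RNA was 15.0, 19.1, 21.6 and 19.6 FPKM in OHT_4h and 5.43, 4.48, 5.36 and 4.80 FPKM in OHT_0h, with no overlap (limma log2 fold change 1.80, SE 0.19, adjusted p = 1.54e-05). Dusp2, a nuclear phosphatase that switches MAP kinases off, had 9.93 FPKM in 4sU_4h and 2.33 FPKM in 4sU_0h, a log2 ratio of 1.88. In total RNA it had 18.1, 19.5, 20.0 and 20.9 FPKM in OHT_4h and 6.13, 5.93, 6.84 and 6.14 FPKM in OHT_0h (limma log2 fold change 1.58, SE 0.12, adjusted p = 1.42e-07). Both groups of libraries were tight for this gene. Spry1, a Sprouty protein that restrains receptor tyrosine kinase signalling, had 10.1 FPKM in 4sU_4h and 3.34 FPKM in 4sU_0h, a log2 ratio of 1.47. Il15ra, the alpha chain of the interleukin 15 receptor, had 13.4 and 3.14 FPKM, a log2 ratio of 1.94, and Rasl11a, a small GTPase of the Ras family, 9.07 and 2.13 FPKM, a log2 ratio of 1.86, at 4 h and 0 h. In total RNA their limma log2 fold changes were 1.28 for Spry1 (adjusted p = 0.000348), 1.13 for Il15ra (adjusted p = 0.00432) and 1.18 for Rasl11a (adjusted p = 2.23e-05).

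Among enzymes, St6galnac4, which adds sialic acid to O-glycans, had the highest nascent level at 4 h of the 12, with 21.5 FPKM in 4sU_4h and 5.96 FPKM in 4sU_0h, a log2 ratio of 1.77. Glul, the glutamine synthetase, had 14.0 FPKM in 4sU_4h and 4.14 FPKM in 4sU_0h, a log2 ratio of 1.64. Its total RNA rose as well, with 60.5 ± 6.55 FPKM in OHT_4h and 36.0 ± 4.85 FPKM in OHT_0h (SD, n = 4 each, limma log2 fold change 0.74, adjusted p = 0.00168). Dgat2, which makes triglycerides from diacylglycerol, had 7.48 FPKM in 4sU_4h and 2.42 FPKM in 4sU_0h, a log2 ratio of 1.45. Gtdc2, a glycosyltransferase of the endoplasmic reticulum that current annotation calls Pomgnt2, had 10.0 FPKM in 4sU_4h and 1.91 FPKM in 4sU_0h, a log2 ratio of 2.12. It overlaps Gask1a and Gm39463 in the RefSeq annotation, and the sources used here do not say whether counting used the strand, so reads of overlapping genes cannot be told apart. In total RNA the limma log2 fold changes were 1.18 for St6galnac4, 1.18 for Dgat2 and 1.41 for Gtdc2, each with non-overlapping groups.

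Of the other 2 rises, Reep6, a membrane protein of the endoplasmic reticulum, had 12.5 FPKM in 4sU_4h and 2.81 FPKM in 4sU_0h, a log2 ratio of 1.98. Its total RNA was 19.8, 27.3, 23.1 and 12.4 FPKM in OHT_4h and 4.95, 5.87, 3.35 and 4.82 FPKM in OHT_0h (limma log2 fold change 1.98, SE 0.24, adjusted p = 4.00e-05). The fourth OHT_4h library was lowest but still above every OHT_0h library. Ica1, a vesicle-associated protein, had 14.4 FPKM in 4sU_4h and 4.99 FPKM in 4sU_0h, a log2 ratio of 1.44, and a total RNA log2 fold change of 0.82 (limma adjusted p = 0.00193).

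**Figure D2:**
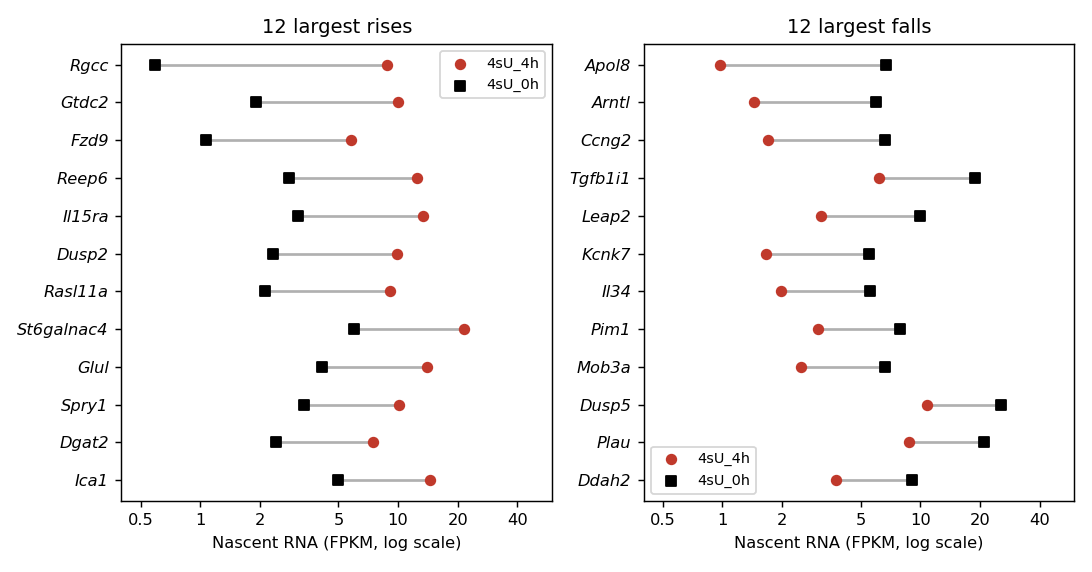
Nascent RNA in FPKM on a log axis for the 12 largest rises (left) and the 12 largest falls (right), with circles for 4sU_4h and squares for 4sU_0h, 1 library each. Rgcc spans the widest gap among rises, 8.79 against 0.589 FPKM, and Apol8 among falls, 0.974 against 6.69 FPKM.

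Of the 12 largest falls, 11 also fell in total RNA at 4 h by limma, beside 2.88% of all genes tested and 2.64% of those measured in nascent RNA, and in the same 11 every OHT_4h library was below every OHT_0h library, which held for 8.18% of all genes tested. The exception was Leap2, a small secreted peptide, with 3.13 FPKM in 4sU_4h and 9.97 FPKM in 4sU_0h, a log2 ratio of -1.53. Total RNA of this gene was 2.52 ± 1.14 FPKM in OHT_4h and 3.41 ± 1.47 FPKM in OHT_0h (SD, n = 4 each, limma adjusted p = 0.720).

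Arntl, which encodes the clock activator BMAL1, had 1.44 FPKM in 4sU_4h and 5.99 FPKM in 4sU_0h, a log2 ratio of -1.74. Its total RNA was 2.79, 2.54, 3.10 and 2.73 FPKM in OHT_4h and 10.1, 8.98, 10.9 and 7.51 FPKM in OHT_0h, groups well apart (limma log2 fold change -1.58, SE 0.25, adjusted p = 0.000744). Ccng2, an unconventional cyclin linked to cell cycle arrest, had 1.70 FPKM in 4sU_4h and 6.65 FPKM in 4sU_0h, a log2 ratio of -1.70. In total RNA it had 11.1, 17.7, 17.2 and 7.36 FPKM in OHT_4h and 27.7, 30.3, 29.6 and 32.5 FPKM in OHT_0h (limma log2 fold change -1.22, SE 0.27, adjusted p = 0.0112). The OHT_4h libraries were spread over a wide range, all below OHT_0h. Apol8, of the apolipoprotein L family, had the largest nascent fall, with 0.974 FPKM in 4sU_4h and 6.69 FPKM in 4sU_0h, a log2 ratio of -2.29. This gene rests on about 36 and 284 reads, a log2 read ratio of -2.78 with a 95% counting interval of -3.33 to -2.28, and its total RNA log2 fold change was -0.87 (limma adjusted p = 0.0142).

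Among adhesion and protease genes, Tgfb1i1, a focal adhesion protein, had 6.16 FPKM in 4sU_4h and 18.8 FPKM in 4sU_0h, a log2 ratio of -1.54. Plau, the urokinase plasminogen activator, had 8.80 FPKM in 4sU_4h and 21.0 FPKM in 4sU_0h, a log2 ratio of -1.21, and total RNA of 36.2 ± 5.32 FPKM in OHT_4h and 67.8 ± 5.66 FPKM in OHT_0h (SD, n = 4 each, limma adjusted p = 0.00517). Among signalling genes, Dusp5, a nuclear phosphatase of ERK, had 10.8 FPKM in 4sU_4h and 25.6 FPKM in 4sU_0h, a log2 ratio of -1.21, opposite in sign to Dusp2. Its total RNA log2 fold change was -1.13 (limma adjusted p = 0.00694). Pim1, a serine/threonine kinase, had 3.03 and 7.90 FPKM, a log2 ratio of -1.25, and Il34, a ligand of the Csf1 receptor, 1.98 and 5.53 FPKM, a log2 ratio of -1.28, at 4 h and 0 h. Both fell in total RNA, with limma log2 fold changes of -1.11 for Pim1 and -1.41 for Il34. The remaining falls were Kcnk7, a potassium channel family member that overlaps Ehbp1l1, at -1.49, Mob3a, of the MOB kinase activator family, at -1.24 and Ddah2, which breaks down methylated arginines, at -1.18 on the log2 scale of nascent RNA. Leaving out single libraries of OHT_4h or OHT_0h ended some of the total RNA calls. The call of Mob3a was lost without OHT_4h replicate 2 (limma adjusted p = 0.0508) and that of Apol8 without OHT_4h replicate 1 (0.0674) or OHT_0h replicate 4 (0.0596). Those of Tgfb1i1, Ddah2 and Kcnk7 were lost in 5, 7 and 8 of the 8 leave-outs, with limma adjusted p up to 0.0871, 0.154 and 0.158. For each of the 24 genes, the counting interval of the nascent read ratio excluded 0. The genes were picked by the size of this ratio among 8050 candidates, so this adds no support for a change.

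Nascent RNA of the Myc gene was lower at 4 h, and its total RNA fell. Myc had 25.2 FPKM in 4sU_4h and 33.1 FPKM in 4sU_0h, a log2 ratio of -0.38. Its total RNA was 7.92, 9.51, 11.4 and 14.5 FPKM in OHT_4h and 24.4, 29.7, 20.3 and 23.0 FPKM in OHT_0h, with no overlap (limma log2 fold change -1.15, SE 0.19, adjusted p = 0.000875). The species of the MycER sequence and how its reads were assigned are not given in the sources used here, so reads of the gene and of the transgene cannot be told apart. Of 11 genes of the Myc and Max network, 1 was at least 1.5-fold higher, beside 4.83% of all genes, and 0 lower. This was Mxi1, a Max partner that opposes Myc, with 11.5 FPKM in 4sU_4h and 6.46 FPKM in 4sU_0h, a log2 ratio of 0.79. Mxi1 also rose in total RNA, with 21.9 ± 3.40 FPKM in OHT_4h and 12.8 ± 1.33 FPKM in OHT_0h (SD, n = 4 each, limma log2 fold change 0.75, adjusted p = 0.00542). Mxi1 and the list members past 1.5-fold named below, other than the 12 rises and 12 falls, were chosen after their values were seen.

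Genes of ribosome production had medians slightly above that of all genes. The median log2 ratio was 0.18 over 40 nucleolar ribosome biogenesis genes, 38 of which were above the median of all genes, and 0.23 over 25 subunits and factors of RNA polymerases I and III, 19 of which were above it. In these lists 1 gene each was past 1.5-fold, beside 4.83% of all genes. Rrp9, which processes ribosomal RNA with the U3 snoRNA, had 40.02 FPKM in 4sU_4h and 25.8 FPKM in 4sU_0h, a log2 ratio of 0.63, and rose in total RNA (limma log2 fold change 0.40, adjusted p = 0.0361, from 0.0229 to 0.125 over the 8 leave-outs of 1 library and lost in 6 of them). Polr3g, a subunit of RNA polymerase III, had 13.9 FPKM in 4sU_4h and 7.64 FPKM in 4sU_0h, a log2 ratio of 0.82, and a total RNA log2 fold change of 0.26 (limma adjusted p = 0.337). The 38 cytosolic ribosomal protein genes had a median of 0.11, with 37 above the median of all genes, and none was past 1.5-fold. Reads of ribosomal protein genes may be shared with their many processed copies. Translation factors had a median of 0.11 over 26 genes, protein folding genes 0.12 over 20, genes of nucleotide and one-carbon synthesis 0.12 over 33 and polyamine synthesis genes 0.13 over 11, with none past 1.5-fold in either direction. Aminoacyl-tRNA synthetases had 0.08 over 20 genes and oxidative phosphorylation 0.08 over 28, also with none past it. Glycolysis had 0.06 over 21 genes. Of these, 1 was past 1.5-fold, on the lower side, beside 3.52% of all genes. This was Slc16a3, a lactate exporter, at -0.66 (total RNA limma adjusted p = 0.389).

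These medians stayed above that of all genes when the libraries were scaled by the median ratio, by quantiles or as reads per base, although on raw reads per base most were just below 0. Relative to all genes, ribosomal proteins lay 0.01 to 0.08 higher over these scales, ribosome biogenesis 0.13 to 0.16 and RNA polymerases I and III 0.20 to 0.21. Many of these genes are highly expressed, where ratios of all genes are narrow and lie above 0, with a median of 0.07 between 20 and 40 FPKM and 0.10 above 40 FPKM. Ribosomal proteins, at a median level of 54.0 FPKM, synthetases, at 26.2 FPKM, and oxidative phosphorylation, at 24.4 FPKM, were thus at about the ratio of all genes of their level. Ribosome biogenesis genes had a median level of 27.6 FPKM and RNA polymerases I and III one of 15.0 FPKM, where the median ratio of all genes between 10 and 20 FPKM was 0.02. In total RNA, 1 of the 40 ribosome biogenesis genes rose by limma, beside 1.9% of all genes tested, with 7 higher and 0 lower at an unadjusted p under 0.05, which 6.03% and 10.4% of all genes tested met. None of the polymerase, translation factor or ribosomal protein genes was called by limma in either direction, with 4, 2 and 0 higher and 0 lower in each list at an unadjusted p under 0.05. The ribosomal protein gene Rpl12, with a mean of 133 FPKM in OHT_0h, lay above the 99th percentile of the 16 total RNA libraries, 82.7 to 97.6 FPKM. At such levels no change and a limit on high values cannot be told apart. In the lists of synthetases, protein folding, polyamine synthesis, nucleotide synthesis, oxidative phosphorylation and glycolysis limma also called 0 genes in either direction, with 0, 0, 0, 1, 0 and 1 higher and 0 lower in each at an unadjusted p under 0.05.

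Cholesterol synthesis had the highest median of the 30 lists. Its 19 genes had a median log2 ratio of 0.48, with 17 above the median of all genes, 7 at least 1.5-fold higher, beside 4.83% of all genes, and 0 at least 1.5-fold lower, beside 3.52%. Dhcr7, which makes cholesterol in the final step of one branch, had 10.8 FPKM in 4sU_4h and 5.65 FPKM in 4sU_0h, a log2 ratio of 0.88. Lss, the lanosterol synthase, had 14.1 FPKM in 4sU_4h and 8.22 FPKM in 4sU_0h, a log2 ratio of 0.74. Insig1, a sterol-regulated brake of the pathway, was at 0.73, and the isoprenoid enzymes Fdps, Idi1 and Mvd were at 0.72, 0.61 and 0.60. In total RNA 2 of the 19 genes rose by limma, beside 1.9% of all genes tested. Dhcr7 had 36.3 ± 8.39 FPKM in OHT_4h and 20.6 ± 3.31 FPKM in OHT_0h (SD, n = 4 each, adjusted p = 0.0235), and Lss 44.3 ± 3.69 FPKM in OHT_4h and 31.5 ± 4.75 FPKM in OHT_0h (SD, n = 4 each, adjusted p = 0.0485). Over the 8 leave-outs of 1 library the limma adjusted p ran from 0.00976 to 0.0921 for Dhcr7, lost in 5, and from 0.0401 to 0.155 for Lss, lost in 6. Fdps had 85.5 ± 5.21 FPKM in OHT_4h and 86.8 ± 11.9 FPKM in OHT_0h (limma adjusted p = 0.973). It lay near the 99th percentile of the 16 total RNA libraries, 82.7 to 97.6 FPKM, where no change and a limit on high values cannot be told apart. Insig1, Idi1 and Mvd were not called either, with log2 fold changes of 0.35, 0.24 and -0.07 (limma adjusted p = 0.200, 0.440 and 0.916). Relative to all genes the list lay 0.43 to 0.45 higher over the scales.

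All 16 replication-dependent histone genes measured were higher than the median gene in nascent RNA. Their log2 ratios ran from 0.26 to 0.50, with a median of 0.40 and none past 1.5-fold, and they lay 0.33 to 0.38 above all genes over the scales. Hist1h3b, a histone H3 gene and the highest of them, had 59.1 FPKM in 4sU_4h and 43.7 FPKM in 4sU_0h, a log2 ratio of 0.43. Total RNA gave no such rise, with a median log2 fold change of -0.05 over the 16 genes and 0 called by limma in either direction, also at an unadjusted p under 0.05. Hist1h3b had 112 ± 10.2 FPKM in OHT_4h and 116 ± 17.0 FPKM in OHT_0h (SD, n = 4 each, limma adjusted p = 0.879). The 99th percentile of the 16 total RNA libraries was 82.7 to 97.6 FPKM. Hist1h3b lay above it, where no change and a limit on high values cannot be told apart. These genes are short, near-identical copies, and how reads were split among them is not given. Other genes of dividing cells lay the other way. DNA replication genes had a median of -0.06 over 32, with 7 above the median of all genes, and mitosis genes -0.15 over 26, with 3 above it. In total RNA limma called 0 genes of both lists, with 0 and 2 lower and 0 higher at an unadjusted p under 0.05. Of all genes tested, 10.4% were lower and 6.03% higher at that level. Only 1 mitosis gene was past 1.5-fold, on the lower side, beside 3.52% of all genes. This was Nusap1, a mitotic spindle protein, with 8.25 FPKM in 4sU_4h and 14.3 FPKM in 4sU_0h, a log2 ratio of -0.75. It overlaps neighbouring genes, and its total RNA was not called by limma (adjusted p = 0.0729).

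G1 regulators had a median of 0.10 over 20 genes, with 1 at least 1.5-fold higher and 2 lower, beside 4.83% and 3.52% of all genes. Ccnd2, a D-type cyclin, had 34.2 FPKM in 4sU_4h and 22.1 FPKM in 4sU_0h, a log2 ratio of 0.62. The lower pair were inhibitors of the kinases that D-type cyclins activate, Cdkn2c at -0.74 and Cdkn2d at -0.62. In total RNA limma called 1 of 21 G1 regulators higher and 1 lower, beside 1.9% and 2.88% of all genes tested. Ccnd2, Cdkn2c and Cdkn2d were not called (limma adjusted p = 0.297, 0.147 and 0.107).

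Clock genes differed in both directions. Of 15, 2 were at least 2-fold higher, beside 1.19% of all genes, and 2 at least 2-fold lower, beside 0.703%, with 2 more past 1.5-fold on the lower side. The median, at 0.02, hides the spread and changed sign relative to all genes between scales. Nr1d1, which encodes REV-ERBα, a repressor of Arntl, had 21.8 FPKM in 4sU_4h and 9.55 FPKM in 4sU_0h, a log2 ratio of 1.15. In total RNA it had 30.7, 29.5, 36.2 and 25.5 FPKM in OHT_4h and 18.3, 19.8, 15.1 and 10.5 FPKM in OHT_0h, with no overlap (limma log2 fold change 0.95, SE 0.26, adjusted p = 0.0439). Nr1d1 overlaps Thra on the other strand, so reads of the pair cannot be told apart, and its limma adjusted p ran from 0.0413 to 0.138 over the 8 leave-outs of 1 library, lost in 6. Bhlhe41, a repressor of clock activators, had 2.31 FPKM in 4sU_4h and 0.505 FPKM in 4sU_0h, a log2 ratio of 1.48. Its total RNA was 8.51 ± 1.09 FPKM in OHT_4h and 2.40 ± 0.325 FPKM in OHT_0h (SD, n = 4 each, limma log2 fold change 1.64, adjusted p = 1.54e-05). On the lower side were Arntl, given above, and 2 repressors of the Period family, Per2 at -1.20 and Per1 at -0.70, as well as Nfil3 at -0.63. Per1, Per2 and Nfil3 were not called in total RNA (limma adjusted p = 0.94, 0.691 and 0.124).

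Genes that restrain MAP kinase signalling also split. Of 15, 3 were at least 1.5-fold higher, beside 4.83% of all genes, and 3 at least 1.5-fold lower, beside 3.52%, with a median of -0.11. Beside Dusp2 and Spry1, the phosphatase Dusp7 was higher, at 0.62, but was not called in total RNA (limma adjusted p = 0.702). Beside Dusp5, Dusp1 was lower, with 9.88 FPKM in 4sU_4h and 17.9 FPKM in 4sU_0h, a log2 ratio of -0.83, as was Spred3, of the Spred family, at -0.85. In total RNA 2 of the 15 rose by limma, beside 1.9% of all genes tested, and 4 fell, beside 2.88%, among them Spred3, whose call was lost in 7 of the 8 leave-outs of 1 library (adjusted p from 0.0403 to 0.131). Immediate early genes, which serum and growth factors switch on, had a median of -0.05 over 27. Of these, 0 were at least 1.5-fold higher and 1 lower, Dusp1, beside 4.83% and 3.52% of all genes. In total RNA 7 of 26 immediate early genes fell, beside 2.88% of all genes tested, and 0 rose by limma. At an unadjusted p under 0.05 there were 16 lower, beside 10.4% of all genes tested, and 0 higher, at a median log2 fold change of -0.40.

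Lists of the matrix, the cytoskeleton and secreted signals lay below the bulk of genes. Collagen and matrix genes had a median of -0.18 over 23, with 1 above the median of all genes and none past 1.5-fold. Targets of YAP and SRF, factors that respond to adhesion and actin, had -0.17 over 21. Of these, 1 was at least 1.5-fold lower, beside 3.52% of all genes. That gene was Ankrd1, with 11.4 FPKM in 4sU_4h and 21.4 FPKM in 4sU_0h, a log2 ratio of -0.89, and 19.5 ± 7.28 FPKM in OHT_4h and 53.5 ± 6.77 FPKM in OHT_0h of total RNA (SD, n = 4 each, limma log2 fold change -1.49, adjusted p = 0.000293). Genes of TGF-beta and BMP signalling had a median of -0.09 over 28. At least 1.5-fold lower was 1 of them, also beside 3.52% of all genes, the activin antagonist Fst, at -0.65. Fst also fell in total RNA (limma log2 fold change -0.90, adjusted p = 0.0345, from 0.00338 to 0.14 over the 8 leave-outs of 1 library and lost in 7). In total RNA limma called 0 higher in each of these lists and 2 of 24 matrix genes, 4 of 21 YAP and SRF targets and 5 of 28 TGF-beta and BMP genes lower, beside 2.88% of all genes tested. At an unadjusted p under 0.05 there were 0 higher and 6, 11 and 9 lower, beside 10.4% lower of all genes tested.

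Chemokines and interleukins had the lowest median, -0.27 over 11 genes, with 4 at least 1.5-fold lower, beside 3.52% of all genes, and 0 higher. Cxcl12, which guides blood cells, had 7.25 FPKM in 4sU_4h and 12.2 FPKM in 4sU_0h, a log2 ratio of -0.72, and Cxcl5, which attracts neutrophils, 4.51 and 7.66 FPKM, a log2 ratio of -0.70, at 4 h and 0 h. Ccl5 was at -0.75 and Tslp at -0.65, both at low levels of 0.868 to 2.30 FPKM. In total RNA 6 of 12 fell, beside 2.88% of all genes tested, and 0 rose by limma. At an unadjusted p under 0.05 there were 7 lower and 0 higher, beside 10.4% and 6.03% of all genes tested. Among the 6 were Cxcl5 (adjusted p = 0.0256), Cxcl12 (adjusted p = 0.0297) and Tslp (adjusted p = 0.000855). Over the 8 leave-outs of 1 library the limma adjusted p ran from 0.0193 to 0.102 for Cxcl5 and from 0.00139 to 0.133 for Cxcl12, each lost in 6. Summed macrophage markers in total RNA were 22.5 to 42.6 FPKM in OHT_4h libraries and 24.2 to 76.2 FPKM in OHT_0h libraries, and their part in this result was not tested.

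**Figure D3:**
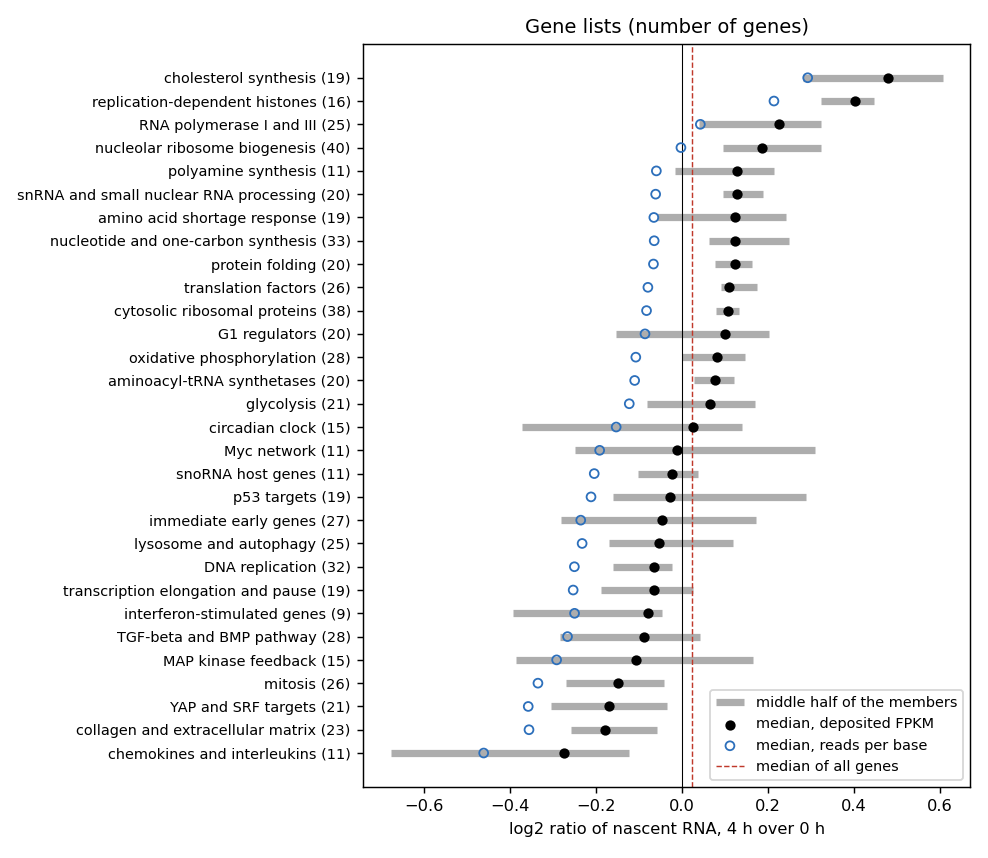
Log2 ratio of nascent RNA, 4 h over 0 h, for 30 gene lists, with the number of genes measured in brackets, the median (black), the middle 50% of the genes (grey bar) and the median on raw reads per base (open circle). Cholesterol synthesis and histones stand at the top, at 0.48 and 0.40, and chemokines and interleukins at the bottom, at -0.27.

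The other lists lay near the median of all genes in nascent RNA. Those of snRNA processing (0.13) and the amino acid shortage response (0.12) were above it, and those of snoRNA hosts (-0.02), p53 targets (-0.03), lysosome and autophagy (-0.05), transcription elongation (-0.07) and interferon-stimulated genes (-0.08) were below it. None of these 7 lists had a gene past 1.5-fold. In total RNA limma called 1 of 19 genes of the amino acid shortage response higher, beside 1.9% of all genes tested. It called 2 of 20 p53 targets and 1 of 10 interferon-stimulated genes lower, beside 2.88%, and no gene of the other 4 lists. In these 4, 1 snRNA processing gene was higher and 2 lysosome and 1 elongation genes were lower at an unadjusted p under 0.05. For the amino acid shortage response, p53 targets and interferon-stimulated genes there were 2, 1 and 0 higher and 2, 5 and 3 lower. The median total RNA log2 fold change of the 10 interferon-stimulated genes was -0.53. Of all genes tested, 6.03% were higher and 10.4% lower at that level.

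Genes with large nascent ratios mostly had total RNA values of the same sign. Of the 12375 genes, 12155 could be tested in total RNA, of which 223 rose (1.83%) and 321 fell (2.64%) at 4 h by limma. The balance of higher and lower genes depended on the scaling: over all 12934 genes in the total RNA fit, limma called 246 higher and 372 lower, against 737 and 712 with median ratio scaling and 858 and 905 with quantile normalization. Among the 143 tested genes at least 2-fold higher in 4sU_4h, 92 rose (64.3%) and 0 fell by limma, with 111 higher and 0 lower at an unadjusted p under 0.05. Among the 78 at least 2-fold lower, 27 fell (34.6%) and 0 rose, with 44 lower and 1 higher at an unadjusted p under 0.05. Before the total RNA filter, 42 of the 87 lower and 22 of the 147 higher genes were miRNA genes, mostly with very few reads. Shares without them were not computed, so the shares of both sides are not like for like. Past 1.5-fold, 181 of 582 higher genes rose (31.1%) and 1 fell, and 127 of 413 lower genes fell (30.8%) and 0 rose. Of the 11160 genes within 1.5-fold, 42 rose (0.376%) and 193 fell (1.73%). Seen from total RNA, 222 of the 223 genes that rose had a nascent ratio above 0, with a median log2 ratio of 0.90, and 92 of them, 41.3%, were past 2-fold. Of the 321 genes that fell, 306 had a nascent ratio below 0, with a median of -0.51, and 27 of them, 8.41%, were past 2-fold. Across all 12155 genes the nascent log2 ratio and the total RNA log2 fold change had a Pearson correlation of 0.66 and a Spearman correlation of 0.62, a description across genes, which are not independent and share the steps of mapping and scaling.

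**Figure D4:**
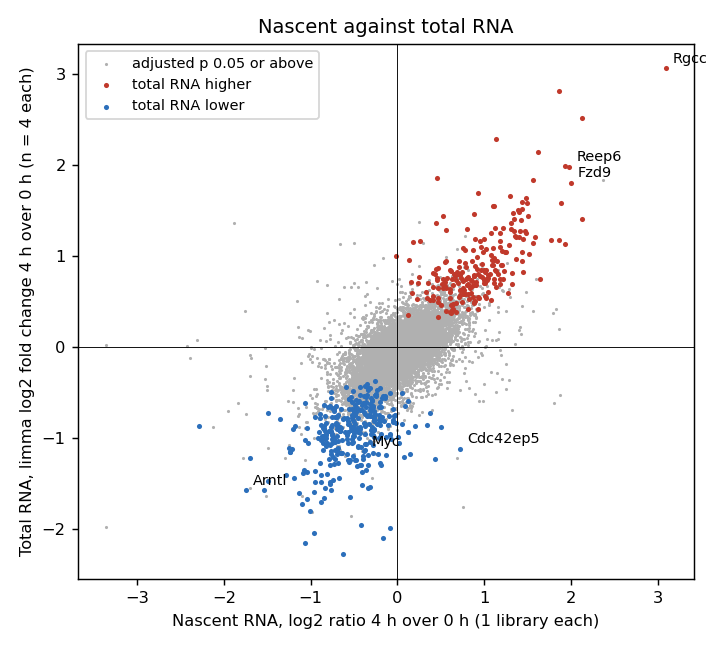
Total RNA log2 fold change at 4 h (limma, n = 4 each) against the nascent log2 ratio (1 library each) for 12155 genes, coloured by the total RNA call. Of 223 genes called higher, 222 lie to the right of 0, and of 321 called lower, 306 lie to the left.

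In 16 genes the total RNA call and the nascent ratio had opposite signs. In 10 of them the nascent log2 ratio was within 0.15 of 0, but the total RNA log2 fold changes of the 16 were -1.23 to -0.50, except for Olfr267 at 1.00. No gene was 2-fold higher in nascent RNA and called lower in total RNA, or the reverse. The gene furthest apart, chosen after its values were seen, was Cdc42ep5, a Cdc42 effector. It had a nascent log2 ratio of 0.72, at low levels of 1.28 FPKM in 4sU_4h and 0.582 FPKM in 4sU_0h. Its total RNA log2 fold change was -1.12 (limma adjusted p = 0.0361). No test of the difference between nascent and total RNA could be made with 1 nascent library per time.

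The direction of the nascent differences was also that of the total RNA medians at later times. For the 143 genes 2-fold higher in nascent RNA, the median total RNA log2 fold change over 0 h was 0.83 at 4 h, 0.81 at 8 h and 0.78 at 16 h. Of these, 92, 85 and 95 were called higher at 4, 8 and 16 h, beside 1.83%, 1.22% and 1.69% of all members tested. For the 78 genes 2-fold lower, the median was -0.81 at 4 h, -0.75 at 8 h and -1.04 at 16 h, with 27, 16 and 37 called lower, beside 2.64%, 0.913% and 7.45%. The median over all 12155 genes was -0.04, -0.05 and -0.14 at these times. These 3 comparisons share the OHT_0h libraries, so they are not independent of each other. Rgcc had 40.3 ± 9.66 FPKM at 8 h and 44.9 ± 5.01 FPKM at 16 h, and Arntl 3.09 ± 1.13 FPKM at 8 h and 2.19 ± 0.821 FPKM at 16 h (SD, n = 4 each), close to their OHT_4h levels.

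**Figure D5:**
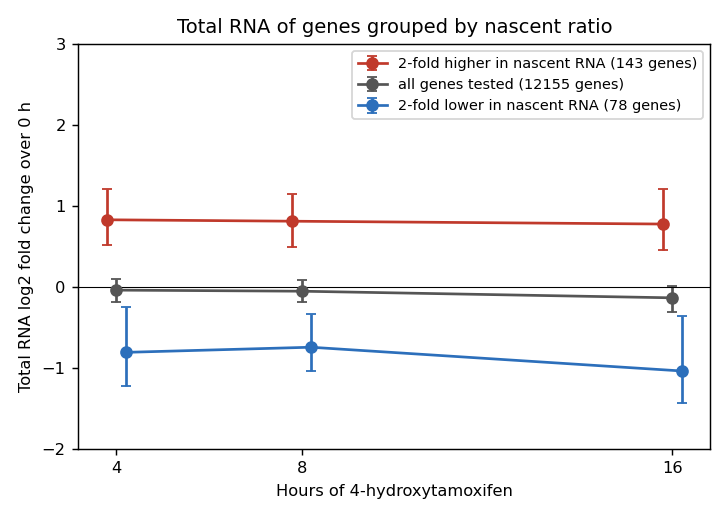
Median total RNA log2 fold change over 0 h, with bars for the middle 50% of the genes, at 4, 8 and 16 h of OHT, for genes grouped by nascent ratio. Genes 2-fold higher in nascent RNA lie between 0.78 and 0.83 and genes 2-fold lower between -0.75 and -1.04, while all genes lie between -0.04 and -0.14.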

How the data were processed

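The authors deposited 1 FPKM value per gene for each of 18 fibroblast libraries, per the file headers. Per the labels, new RNA was tagged with 4sU (300 µM, 10 min) and selected through biotin, and ribosomal RNA was removed. The submitters' processing notes name TopHat2 2.0.8, TopHat, SAMtools, HTSeq 0.5.3p9 and the build mm9. The annotation, read filters, strand setting and rule behind the FPKM scale are not given in the sources used here. The 11 B cell libraries of the series were not used.

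Nascent log2 ratios used FPKM + 0.5 and genes with at least 1 FPKM in either library. Read denominators came from the spacing of low values of small RNA genes, of which 92.6% and 93.6% (4sU_4h and 4sU_0h) lay within 0.1 of a whole read. Read numbers behind a value are approximate, since they use median transcript lengths of GENCODE M21, and intervals cover counting error only. Total RNA was tested on log2(FPKM + 0.5) by limma (3.58.1, under R 4.3.3) through lmFit and a trended, robust eBayes, two-sided. All 16 libraries entered 1 fit, over 12934 genes with at least 1 FPKM in at least 4 libraries, with Benjamini-Hochberg adjustment and a call at an adjusted p under 0.05. Nothing says that the 4 libraries of a time are separate cultures, so p-values measure the spread between libraries, which may be technical. Limma was tested on simulated data. Other steps used Python 3.11.15, NumPy 2.4.6, pandas 2.3.3, SciPy 1.17.1 and Matplotlib 3.10.9. RefSeq matched 12315 of the 12375 genes.

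Named genes are Myc, the 12 largest nascent rises and falls whose higher library had 5 FPKM or more and whose other one was above 0, up to 3 members per list past 2-fold with at least 5 FPKM or else the member with the highest level, and the 5 highest levels. Some genes that this rule names are not reported here. Predicted genes, small RNAs, pseudogenes and mitochondrial genes were left out of the ranking by symbol. The genes, lists and comparisons were chosen with earlier results of these data known. Alternatives were other pseudocounts, filters and scalings, the fit of 2 groups, a replicate block and leaving out single libraries.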

Additional observations from a re-analysis of the deposited data

Results flagged for a closer look

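Of 174 groups of 4 total RNA libraries tested for 1 value far from the other 3 by Dixon's criterion, 5 had one, and chance alone gives about 1 in 20. Atp5b had 123 FPKM in OHT_4h replicate 3, against 97.8 to 101 FPKM in the other OHT_4h libraries. Cxcl12 had 9.21 FPKM in OHT_4h replicate 4, against 3.21 to 4.12 FPKM in the others. Cdk4 had 123 FPKM in OHT_0h replicate 1, against 102 to 104 FPKM in the others. Nfil3 had 27.8 FPKM in OHT_0h replicate 1, against 31.4 to 31.8 FPKM in the others. Ccl5 had 28.6 FPKM in OHT_0h replicate 4, against 0.799 to 2.50 FPKM in the others.

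Cdc42ep5, picked after its values were seen, had values of opposite sign in nascent and total RNA. Its nascent level was low, and it met the entry level of 1 FPKM in 4sU_4h only. Log2 ratios of genes with a mean level up to 1 FPKM had an SD of 0.72, which the entry rule itself widens. Its nascent RNA was 1.28 FPKM in 4sU_4h and 0.582 FPKM in 4sU_0h, a log2 ratio of 0.719, while its total RNA was 1.33, 1.31, 1.62 and 3.29 FPKM in OHT_4h and 5.58, 4.47, 4.41 and 3.52 FPKM in OHT_0h. The difference between nascent and total RNA was not tested.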

How the results depend on the processing

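Of 512 comparisons of a named gene's nascent log2 ratio with an alternative pseudocount, filter or scaling other than raw reads per base, 10 changed sign, all of ratios up to 0.12 in size and all with median ratio scaling or quantile normalization (Tars, Phgdh, Pcna, Gas5, Cyr61, Col1a1, Snrpb and Vim). On raw reads per base 17 of 87 changed sign, of ratios up to 0.17 in size. For 1557 such comparisons in total RNA, 1443 kept their side of the threshold, 88 lost the call and 26 gained it. Among them 50 changed sign, 0 of these in a gene that was called. Of the genes in the report, the calls most often lost were those of Kcnk7 and Lss, each in 10 alternatives. The 147 genes 2-fold higher and 87 lower became 225 and 137 with a pseudocount of 0.1, 95 and 55 with 1, and 73 and 35 among genes with at least 5 FPKM. Alternatives chosen after seeing the data gave 95 and 157 on raw reads per base, 598 and 436 past 1.5-fold, and 44 lower without small RNA genes. On raw reads per base the shift follows from leaving out the division by 24.4 M reads for 4sU_4h and 27.86 M for 4sU_0h. The cause of the other shifts was not tested, apart from the changed threshold and number of genes. The share of 2-fold higher genes that rose in total RNA, 64.3%, was 52.8% with a pseudocount of 0.1, 76.7% among genes with at least 5 FPKM, 31.1% past 1.5-fold, 74.3% with a filter of 5 FPKM on total RNA, 77.6% with median ratio scaling, 76.9% with quantile normalization and 73.2% in a fit of OHT_4h and OHT_0h alone. The share of 2-fold lower genes that fell, 34.6%, was 54.8% with the filter on total RNA and 52.3% in the fit of these groups alone. Total RNA called 246 genes higher and 372 lower, against 737 and 712 with median ratio scaling, 858 and 905 with quantile normalization, 794 lower in the fit of these groups alone, and 409 and 849 without the 4 libraries numbered 4. Leaving out 1 library gave 145 to 284 higher and 116 to 480 lower, and shares of 53.1% to 64.3% and 24.4% to 30.8%. Without OHT_4h replicate 1 there were 198 higher and 116 lower, and without replicate 2 there were 145 and 120, so the balance in total RNA rests on single libraries. The count moved by over 1.5 times also without OHT_4h replicate 3 (145 higher) and without OHT_0h replicate 1 (161 and 213), 2 (176 lower), 3 (217 lower) or 4 (208 lower).

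The replicate numbers were not taken as a pairing, since the labels give no shared source and not every same-numbered OHT_4h and OHT_0h pair deviated together, with correlations of 0.20, 0.15, 0.02 and 0.42. As a hint from the data, 9 of 16 libraries correlated best with those of their own number, and the libraries numbered 4 correlated at 0.32 to 0.64 with each other and at -0.53 to 0.05 with the rest. With a replicate block 408 genes were higher and 697 lower in total RNA, and 74.1% of the genes 2-fold higher in nascent RNA rose.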
